A study of Mus musculus with 14 samples.

Results

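Glycogen is the glucose store of heart muscle, and the 9 genes described here encode the enzymes that build it and break it down: the phosphorylase kinase subunits Phkg1, Phka1, Phka2 and Phkb, the glycogen phosphorylases Pygm and Pygb, glycogen synthase Gys1, the branching enzyme Gbe1 and glycogenin, Gyg. They were matched by symbol among the 23337 genes of the count table, all 9 were found, and all 9 passed the filter on low counts. The members were chosen by name, with their levels in the gRNA and control libraries already known, so the difference between the groups is given for them as a description and without a test.

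The RNA came from heart muscle cells of Rosa-Cas9GFP mice, whose Rosa locus carries Cas9 and GFP, injected at postnatal day 1 with an adeno-associated virus (AAV). The gRNA group (n = 7) received AAV-Ryr2gRNA, whose guide RNA is directed at Ryr2, the calcium release channel of heart muscle, and the control group (n = 7) received AAV-Cre, so both groups carried Cas9 and a virus. Cells were isolated at 4 weeks of age by Langendorff perfusion and sorted. The sources used here do not give the promoters of Cas9, Cre and the guide, or whether the guide virus also carried Cre, so a difference due to the guide and a difference due to the virus cannot be told apart. The samples are not said to come from separate animals, and p-values then measure only the spread between these samples.

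In muscle, phosphorylase kinase is the enzyme through which calcium and adrenaline start glycogen breakdown. It is an assembly of alpha, beta and gamma subunits with calmodulin as the delta subunit: the gamma subunit is the catalytic kinase, the alpha and beta subunits are regulatory and are targets of protein kinase A, and calmodulin binds calcium. The active kinase phosphorylates glycogen phosphorylase, which then releases glucose 1-phosphate from the ends of the glycogen chains. Glycogenin primes a new particle, glycogen synthase lengthens the chains, and the branching enzyme adds the branch points.

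Library totals ranged from 6313220 to 13165662 counts in the controls and from 5689335 to 11064715 in the gRNA group. Ryr2, the targeted gene, was lower in all 7 gRNA libraries than in any control, at 309 ± 48.1 against 675 ± 71.4 CPM (SD, n = 7 each; CPM, counts scaled to library size; log2 -1.13, SE 0.0977, adjusted p = 3.3e-07 by edgeR's quasi-likelihood test; exact permutation p = 0.00058). Of all genes tested, 13.7% were called lower and 14.5% higher, and the counts of markers below stand beside these shares. Cardiomyocyte markers summed to 101097 to 119977 CPM in controls and 81453 to 109246 CPM in gRNA libraries, and 5 of the 8 (Tnnt2, Tnni3, Pln, Myl2 and Actc1) were called lower. In bulk RNA of this kind fewer cells of a type and less RNA per cell cannot be told apart. The macrophage list had 3 of 8 tested genes higher in the gRNA group (Emr1, C1qb and Lyz2), with summed levels of 22.4 to 108 CPM in controls and 57.5 to 427 CPM in gRNA libraries, and its part in the results below was not tested. Of 6 fibroblast and 6 endothelial markers tested, 0 passed the same edgeR test, and of 5 pericyte and smooth muscle markers 1 did, Tagln, which was higher (3.62 ± 2.16 and 7.26 ± 2.39 CPM). The 7 skeletal muscle markers summed to 3836 to 5077 CPM in controls and 2274 to 3336 CPM in gRNA libraries, without overlap. Nearly all of that sum was Ckm, the creatine kinase of heart as well as skeletal muscle, which was called lower (4202 ± 461 CPM in controls and 2692 ± 380 CPM in gRNA libraries). Of the other 6 markers Actn3, Myh1, Myh2, Myh4, Tnnt3 and Mylpf had 12, 5, 8, 9, 23 and 155 counts over all 14 libraries. The libraries with index 7 to 10 in the sample descriptions (control replicates 4 and 5, gRNA replicates 4 and 5) stood apart on the second principal component (24.2% of the variance), so values within them and within the other 10 libraries are given beside the members' values.

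The 250 bases before the transcript start of the 3 members whose gRNA and control values did not overlap are shown first (RefSeq, GRCm38.p6, the mm10 assembly), since these are the regulatory windows nearest to the largest differences. They lie at chr5:129879089-129879338 (minus strand) for Phkg1, chrX:102644247-102644496 (minus strand) for Phka1 and chr16:70313699-70313948 (plus strand) for Gbe1, each written 5′ to 3′ in its gene's direction. Capitals mark E-boxes, the letters CANNTG, which are bound by MyoD-type and other helix-loop-helix factors.
Phkg1: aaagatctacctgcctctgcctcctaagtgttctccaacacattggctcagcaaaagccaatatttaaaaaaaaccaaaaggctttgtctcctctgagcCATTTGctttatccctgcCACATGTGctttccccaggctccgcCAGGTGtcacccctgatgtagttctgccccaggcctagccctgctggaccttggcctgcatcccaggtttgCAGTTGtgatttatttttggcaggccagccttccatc
Phka1: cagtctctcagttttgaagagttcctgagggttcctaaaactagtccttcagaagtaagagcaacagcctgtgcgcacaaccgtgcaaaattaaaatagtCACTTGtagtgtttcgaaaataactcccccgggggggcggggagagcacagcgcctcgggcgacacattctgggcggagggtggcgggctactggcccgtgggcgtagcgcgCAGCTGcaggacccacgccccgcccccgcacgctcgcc
Gbe1: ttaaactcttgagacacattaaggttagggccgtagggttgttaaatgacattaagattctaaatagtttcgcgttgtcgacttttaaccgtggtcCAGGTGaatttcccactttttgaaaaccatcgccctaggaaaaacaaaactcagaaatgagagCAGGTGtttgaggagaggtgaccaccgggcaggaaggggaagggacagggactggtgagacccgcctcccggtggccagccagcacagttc
The Phkg1 window held 5 E-box matches, 2 of them overlapping, and the Phka1 and Gbe1 windows held 2 each. All 9 members had a promoter entry, and 6 of the 9 windows held an E-box, against 66.2% of 32851 promoter windows of the same length, so the members did not stand out. The half-site AAGGTCA, recognised by oestrogen-related and other nuclear receptors, was in 4.08% of all windows, and the core TGATGNAA of C/EBP-ATF elements in 3.45%. On either strand, neither set of letters was in any of the 9 windows.

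Across all 11170 genes tested, 28.2% passed an adjusted p of 0.05 (edgeR), 14.5% higher and 13.7% lower in the gRNA group, and in 10.5% all 7 gRNA values lay above, or all below, the 7 control values. Of the 9 members 4 were past that line, 2 higher (Phka1 and Gbe1) and 2 lower (Phkg1 and Phka2), and in 3 the groups did not overlap. These counts come from the contrast with which the members were picked and lend no support. The authors' deposited table had 5 members past 0.05, the same 4 and Pygm. The median log2 fold change of the members was -0.12, and that of all tested genes 0.01.

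**Figure D1:**
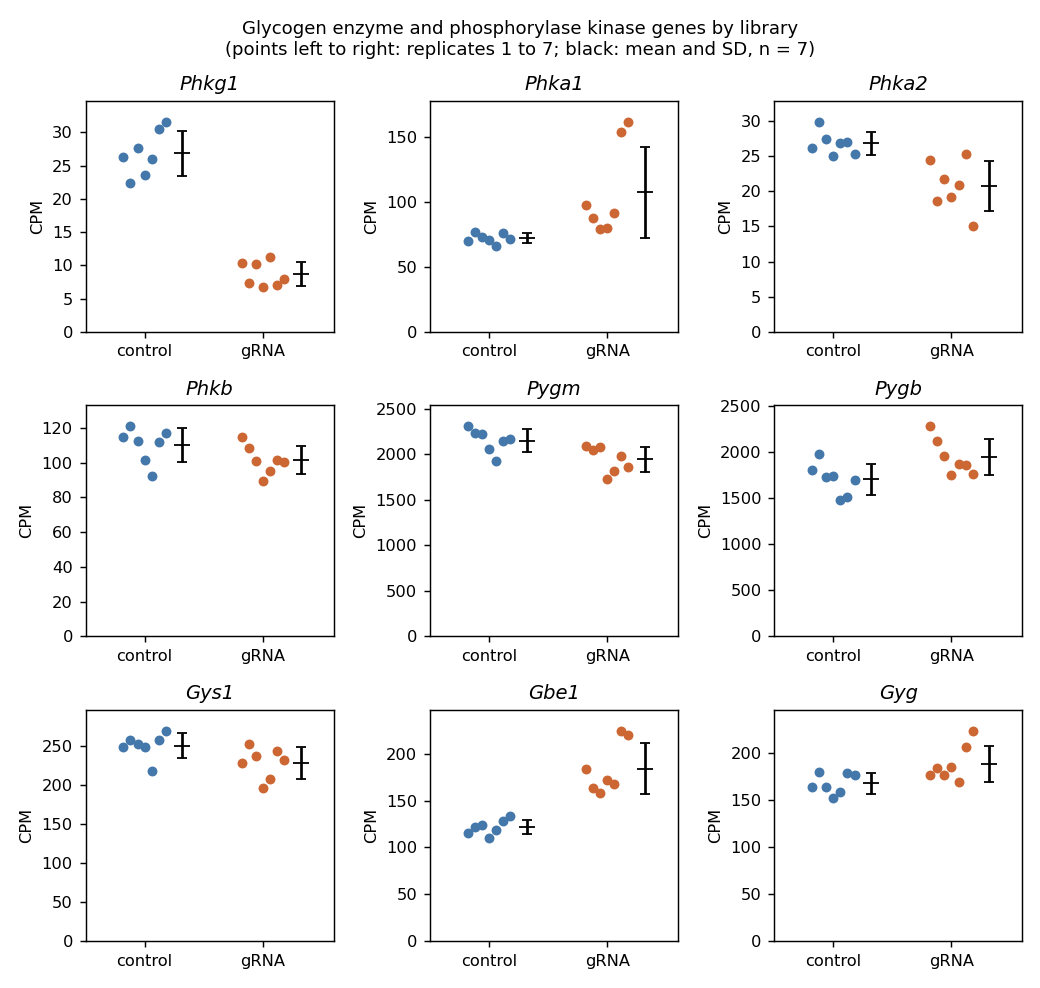
Level of each of the 9 genes in every library, in CPM on axes that start at 0. Points stand for replicates 1 to 7 from left to right in each group, and the black bar is the mean with the SD (n = 7). Phkg1 is below, and Phka1 and Gbe1 above, every control in all 7 gRNA libraries, and gRNA replicates 6 and 7 stand above the other gRNA libraries in Phka1, Gbe1 and Gyg.

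Phkg1, the catalytic gamma subunit of the muscle enzyme (chromosome 5, 129863435 to 129879083, minus strand, mm10, 2360 bp of exon), had the largest difference of the 9. In control replicates 1 to 7 Phkg1 stood at 26.3, 22.4, 27.6, 23.6, 26.0, 30.5 and 31.6 CPM, and in gRNA replicates 1 to 7 at 10.4, 7.41, 10.2, 6.80, 11.2, 7.04 and 7.99 CPM. Every gRNA library was below every control by a wide margin. Mean Phkg1 was 26.9 ± 3.36 CPM in controls and 8.72 ± 1.83 CPM with the guide (SD, n = 7 each), which put the gRNA group at 32.5% of the control level (log2 -1.62, SE 0.125). Restricted to the other 10 libraries it was -1.69 on the log2 scale, and restricted to indices 7 to 10 it was -1.47. Between 43 and 320 reads per library lie behind these values. At its 3′ end Phkg1 shares 517 bases of exon, 21.9% of its exonic length, with Sumf2 on the opposite strand, and the library method does not mark the strand. Sumf2 stood at 8.93 ± 1.48 CPM in controls and 9.17 ± 1.06 CPM in gRNA libraries (log2 0.04, edgeR adjusted p = 0.84).

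Phkg2 encodes the other gamma subunit, known from liver and testis. Phkg2 is no member and was tested as one of a fixed list, also drawn up with earlier results of these data known. It was at 7.05 ± 1.57 CPM in controls and 7.29 ± 0.874 CPM in gRNA libraries (SD, n = 7 each) and did not pass (log2 0.05, SE 0.144, edgeR adjusted p = 0.85). The sign of this value was not stable: it was 0.20 among the other 10 libraries, -0.31 within indices 7 to 10, and -0.018 or -0.013 without control replicate 2 or 3. Per kilobase of exon, the scale on which levels of different genes are compared here, Phkg1 made up 72.5 ± 4.70% of the gamma transcripts in controls (range 66.3 to 78.5%) and 44.9 ± 5.36% in gRNA libraries (range 37.6 to 51.8%). The 2 ranges did not overlap. Phkg1 was 1.97 to 3.65 times the level of Phkg2 in the control libraries and 0.603 to 1.077 times in the gRNA libraries. These shares and ratios use the full exonic length of Phkg1, including the stretch shared with Sumf2. The level of Phkg1 relative to Phkg2 is therefore uncertain in both groups.

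Phka1 and Phka2 encode the regulatory alpha subunits, the first known as the muscle form and the second as the liver form, and both genes are on the X chromosome. Phka1 (102513975 to 102644246, minus strand) held 69.6, 77.0, 72.7, 70.8, 66.2, 76.5 and 71.3 CPM in controls. In gRNA libraries it held 98.02, 87.6, 78.9, 79.9, 91.5, 154 and 162 CPM. Every gRNA library was above every control, and replicates 6 and 7 were far above the other 5. Mean Phka1 was 72.0 ± 3.80 and 107 ± 35.3 CPM (SD, n = 7 each, log2 0.58, SE 0.153). The coefficient of variation was 5.28% in controls and 32.8% in the gRNA group. Without gRNA replicates 6 and 7, a setting chosen after the data were seen, the log2 fold change was 0.28 (SE 0.0663). It was 0.67 among the other 10 libraries, which include those 2, and 0.28 (SE 0.121) within indices 7 to 10.

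Phka2 (160502166 to 160598878, plus strand) differed in the opposite direction. It held 26.2, 29.9, 27.4, 25.1, 26.9, 27.0 and 25.4 CPM in controls and 24.5, 18.7, 21.7, 19.2, 20.9, 25.3 and 15.0 CPM in gRNA libraries. Of the 7 gRNA libraries 6 were below every control, and replicate 6 lay just inside the control range. Mean Phka2 was 26.8 ± 1.61 and 20.7 ± 3.54 CPM (SD, n = 7 each, log2 -0.38, SE 0.1001, with -0.41 within indices 7 to 10 and -0.38 in the other 10 libraries). Per kilobase of exon, Phka1 accounted for 69.7 ± 1.14% of the alpha transcripts in controls and 80.7 ± 4.94% in gRNA libraries, and the ranges, 67.9 to 70.9% and 75.8 to 90.3%, did not overlap. The highest share was that of gRNA replicate 7.

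Phkb, the regulatory beta subunit and the only gene for it (chromosome 8, 85841002 to 86060642, plus strand), differed little between the groups. Its control values ran from 92.5 through a median of 113 to 121 CPM and its gRNA values from 89.4 through 101 to 115 CPM, with means of 110 ± 9.89 and 102 ± 8.20 CPM (SD, n = 7 each, log2 -0.12, SE 0.0680, and -0.078 without gRNA replicate 4). The ranges overlapped, and 1 of 7 gRNA libraries was below every control. Set against Phkb per kilobase, the gamma transcripts (Phkg1 and Phkg2 together) stood at a ratio of 0.665 ± 0.110 in controls and 0.372 ± 0.0433 in gRNA libraries, and the ranges did not overlap (0.481 to 0.830 and 0.304 to 0.451). The alpha transcripts (Phka1 and Phka2) stood at 0.711 ± 0.0508 and 0.981 ± 0.261, with overlapping ranges. In gRNA replicates 6 and 7 the alpha ratio was 1.36 and 1.35, and in the other 5 it was between 0.763 and 0.918. Summed per kilobase, the gamma transcripts were at 15.7 ± 1.88 in controls and 8.18 ± 1.02 in gRNA libraries. The gamma values again use the full exonic length of Phkg1, so their level relative to Phkb is uncertain.

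**Figure D2:**
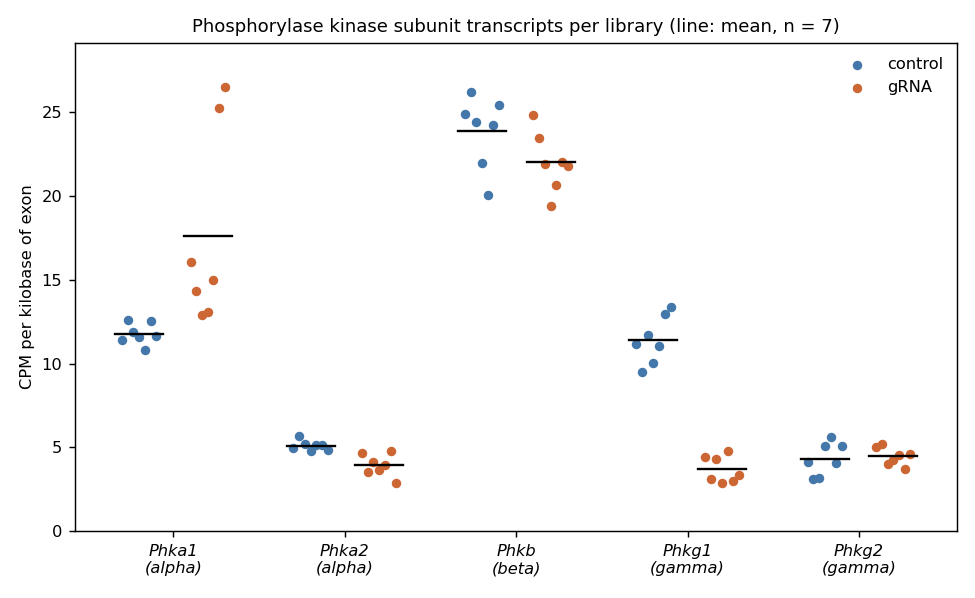
Transcript level of the phosphorylase kinase subunits, in CPM per kilobase of exon, for each library of the control (blue) and gRNA (orange) groups. Lines are means (n = 7). On its full exonic length, including the stretch shared with Sumf2, Phkg1 lies above Phkg2 in all controls and at about its level in gRNA libraries. The highest Phka1 values are those of 2 gRNA libraries.

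Pygm, the muscle form of glycogen phosphorylase and the substrate of the kinase (chromosome 19, 6384429 to 6398459, plus strand), was the most abundant member. It ran from 1925 through a median of 2163 to 2305 CPM in controls and from 1732 through 1977 to 2089 CPM in gRNA libraries. Mean Pygm was 2149 ± 126 and 1943 ± 140 CPM (SD, n = 7 each, log2 -0.15, SE 0.0589), and 3 of 7 gRNA libraries were below every control. Pygb, the form named for brain and also present in heart (chromosome 2, 150786796 to 150831748, plus strand), ran from 1477 through 1724 to 1978 CPM in controls and from 1751 through 1867 to 2279 CPM in gRNA libraries. Its means were 1704 ± 171 and 1943 ± 194 CPM (log2 0.19, SE 0.0760), and 2 of 7 gRNA libraries were above every control.

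The 2 phosphorylases thus differed from the controls in opposite directions, each by an amount close to the spread between replicates, while their balance separated the groups. Per kilobase, Pygm made up 63.0 ± 1.75% of the Pygm and Pygb transcripts in controls (60.3 to 65.7%) and 57.5 ± 1.40% in gRNA libraries (55.3 to 58.9%). The ranges did not overlap. Both genes are members whose differences were known beforehand, and how often the balance of any 2 genes separates the groups was not worked out. The sum of Pygm and Pygb was 1200 ± 81.1 CPM per kilobase in controls and 1189 ± 94.7 in gRNA libraries. Pygl, the liver form, was scarce, at 4.85 to 6.91 CPM in controls and 5.18 to 8.47 CPM in gRNA libraries, and did not pass (log2 0.26, SE 0.136, edgeR adjusted p = 0.17). Its log2 fold change was 0.089 in the other 10 libraries and 0.66 (SE 0.240) within indices 7 to 10.

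Gbe1, the branching enzyme (chromosome 16, 70314087 to 70569716, plus strand), held 115, 122, 124, 110, 119, 128 and 133 CPM in controls and 183, 164, 158, 172, 167, 225 and 221 CPM in gRNA libraries. Every gRNA library was above every control, again with replicates 6 and 7 highest. Mean Gbe1 was 122 ± 7.70 and 184 ± 27.4 CPM (SD, n = 7 each, log2 0.60, SE 0.0825). Without gRNA replicates 6 and 7 the log2 fold change was 0.48 (SE 0.0564), in the other 10 libraries 0.61, and within indices 7 to 10 it was 0.52.

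Gyg, the glycogenin that primes each particle (chromosome 3, 20122084 to 20155096, minus strand), ran from 152 through a median of 163 to 179 CPM in controls and from 168 through 183 to 223 CPM in gRNA libraries, and 4 of 7 gRNA libraries were above every control. Mean Gyg was 167 ± 10.9 and 188 ± 19.3 CPM (SD, n = 7 each, log2 0.17, SE 0.0664). Without gRNA replicates 6 and 7 the log2 fold change was 0.09 (SE 0.0545), below 0.17 by more than 1.5 times.

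Gys1, glycogen synthase of muscle (chromosome 7, 45434839 to 45456617, plus strand), ran from 217 through 252 to 269 CPM in controls and from 196 through 232 to 252 CPM in gRNA libraries. Its means were 250 ± 16.1 and 228 ± 20.1 CPM (SD, n = 7 each, log2 -0.13, SE 0.0630), and the ranges overlapped. Within indices 7 to 10 the value was -0.25 (SE 0.104), in the other 10 libraries -0.11, and without gRNA replicate 4 it was -0.088. The order of the synthase and branching enzyme means differed between the groups. Per kilobase, Gys1 was 1.42 to 1.74 times the level of Gbe1 in the controls and 0.813 to 1.19 times in the gRNA libraries, where Gbe1 was the higher of the pair in 5 of 7. Gys2, the liver synthase, had 0 counts in all 14 libraries.

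**Figure D3:**
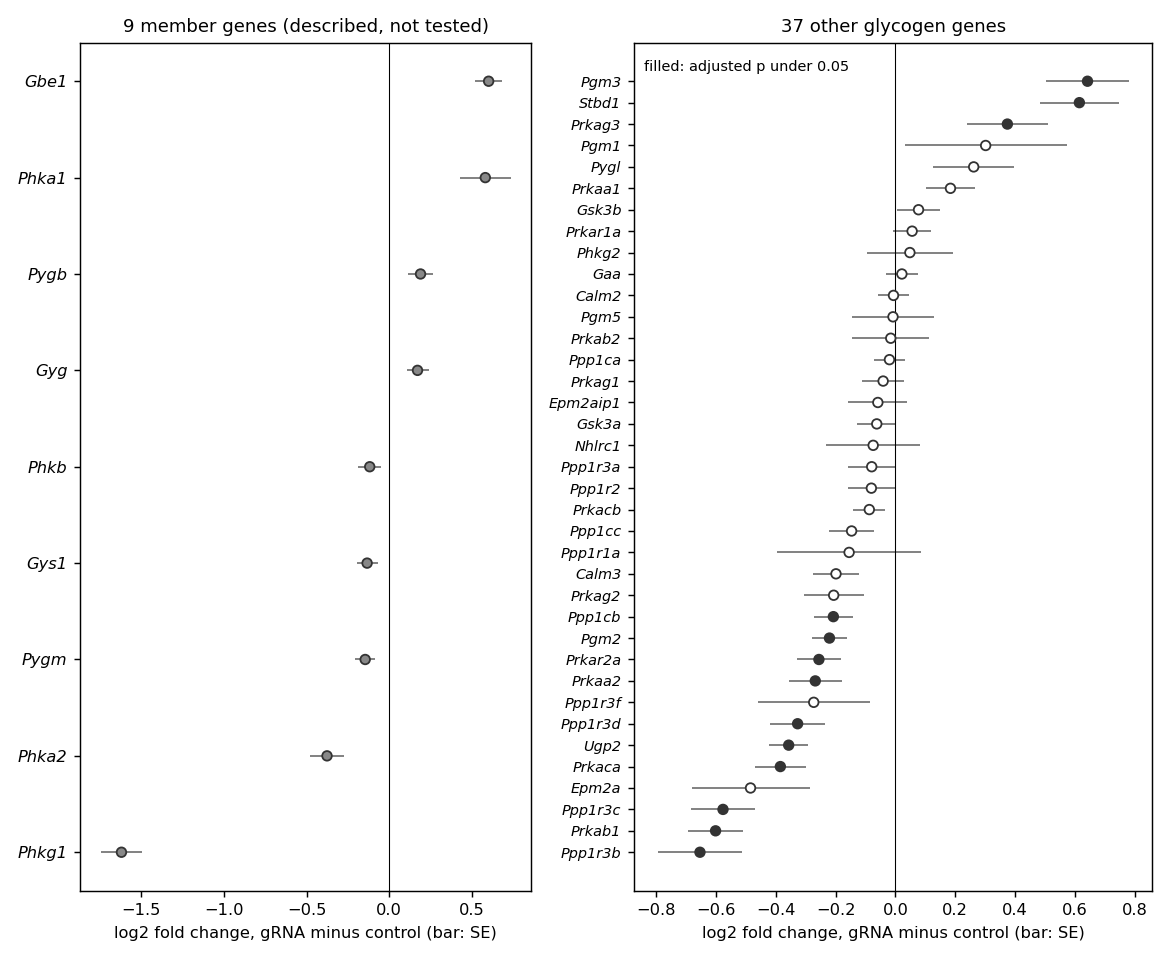
Log2 fold change, gRNA minus control, with its standard error (edgeR) for the 9 members (left, described without a test) and for 37 other glycogen genes that passed the filter on low counts (right). Filled points on the right passed an adjusted p of 0.05. Phkg1 lies furthest from 0 at -1.62, and on the right the values run from -0.65 (Ppp1r3b) to 0.64 (Pgm3).

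Per kilobase of exon the order of the members in controls was Pygm (756 ± 44.4), Pygb (444 ± 44.6), Gyg (98.4 ± 6.40), Gys1 (68.0 ± 4.37), Gbe1 (42.7 ± 2.71), Phkb (23.9 ± 2.14), Phka1 (11.8 ± 0.622), Phkg1 (11.4 ± 1.43) and Phka2 (5.11 ± 0.306) CPM per kilobase (SD, n = 7). Phka1 and Phkg1 overlapped in their ranges, and Phka1 was the higher of the pair in 4 of 7 control libraries. All other neighbours in the order were apart in every control library. In the gRNA group Gbe1 (64.7 ± 9.63) came before Gys1 (61.9 ± 5.45), and Phkg1 (3.70 ± 0.775) came last after Phka2 (3.95 ± 0.673). There the pairs Gbe1 and Gys1, Phkb and Phka1, and Phka2 and Phkg1 had overlapping ranges. The level of Phkg1 per kilobase uses its full exonic length, including the stretch shared with Sumf2. Its place beside Phka1 and Phka2 is therefore uncertain in both groups. The phosphorylase transcripts were thus far more abundant per length than those of the kinase that acts on them, in both groups.

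The control libraries alone also varied with the library index, a split that does not use the guide. In the 2 controls of index 7 to 10 the mean of all 9 members was lower than in the other 5 controls. For Phkb, Pygm, Gys1 and Gyg both of those libraries were below each of the other 5. Phkb averaged 97.0 CPM in the 2 and 116 CPM in the 5 controls, Pygm 1988 and 2213 CPM, Gys1 233 and 257 CPM, and Gyg 155 and 172 CPM. With 2 libraries on one side no test was made. The share of all genes with such a split was not worked out, so the split is not shown to be particular to the members.

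Once each group's own mean was subtracted, some members varied together from library to library, and they are described here as 2 sets. Of the 36 pairs of members 8 passed (Pearson r over 14 libraries, permutation within groups, adjusted over the 36 pairs), all with a positive r. The share of such pairs among all genes was not worked out, so the relations are not shown to be particular to the members. The permutation took no account of the library index. The first set was Phka1, Gbe1 and Gyg. For Phka1 and Gbe1 r was 0.901 (permutation adjusted p = 0.022) and Spearman's rho 0.859 (adjusted p = 0.026), for Gbe1 and Gyg r was 0.844 (adjusted p = 0.022) and rho 0.763 (adjusted p = 0.035), and for Phka1 and Gyg r was 0.784 (adjusted p = 0.036) and rho 0.705 (adjusted p = 0.047). Leaving out gRNA replicates 6 and 7, the 2 libraries farthest out in each of these 3 relations, r became 0.520, 0.607 and 0.227 (permutation p = 0.088, 0.053 and 0.43). All 3 relations were thus weaker without these libraries. Within the 7 controls alone, which hold neither library, r was 0.41, 0.82 and 0.72 and was not tested. Among the libraries outside indices 7 to 10, which include gRNA replicates 6 and 7, r was 0.940, 0.833 and 0.882.

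The second set was Phkb with Pygm, Pygb and Gys1, and Pygm with Pygb and Gys1. Phkb and Pygm had r = 0.878 (permutation adjusted p = 0.0022) and rho = 0.824 (adjusted p = 0.020), and r was 0.748 without control replicate 5 and gRNA replicate 4. Among the 10 libraries outside indices 7 to 10, r was 0.494 for Phkb and Pygm (permutation p = 0.26), -0.033 for Phkb and Gys1 and -0.16 for Pygm and Gys1. These 3 relations were thus weaker there. With 10 libraries the value for Phkb and Pygm does not show that their relation is absent. The relations of Pygb were not weaker there. In those 10 libraries r was 0.866 with Phkb and 0.742 with Pygm (permutation p = 0.0021 and 0.020, not adjusted). Adjusted p-values were not worked out for the 10 libraries, so these relations are not shown to pass there. Over all 14 libraries r was 0.760 and 0.740 (permutation adjusted p = 0.022 for both), with rho 0.745 and 0.767 (adjusted p = 0.035 and 0.029). Without control replicate 5 and gRNA replicate 4 the r values were 0.640 and 0.613. Indices 7 to 10 hold 4 libraries, too few for a value of their own. For Phkb and Gys1 (r = 0.770) and Pygm and Gys1 (r = 0.771) Spearman's rho did not pass, at 0.596 and 0.516 (adjusted p = 0.17 and 0.37), and without the same 2 libraries r was 0.450 and 0.455. No pair with Phkg1 or Phka2 passed. Negative relations appeared in the 10 libraries alone, between Pygm and the first set: r was -0.922 with Gyg, -0.790 with Gbe1 and -0.774 with Phka1 (permutation p = 0.0029, 0.015 and 0.018, not adjusted). Over all 14 libraries these 3 values were 0.062, -0.025 and 0.031.

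**Figure D4:**
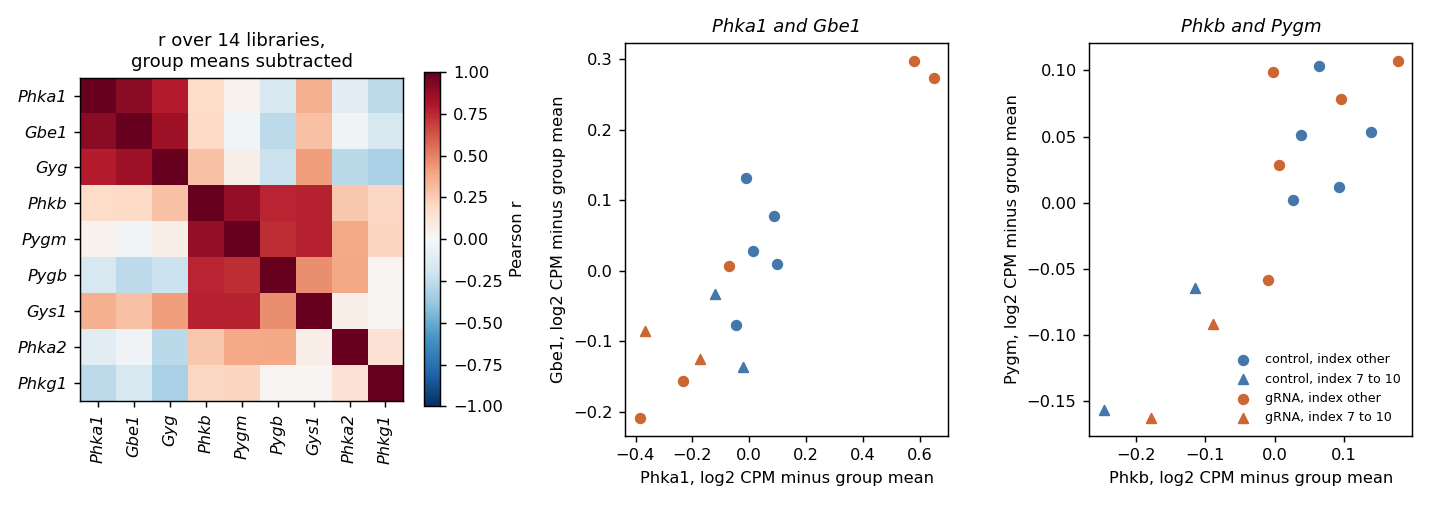
Left, Pearson r between members over 14 libraries after each group's mean log2 CPM was subtracted. Middle and right, the values behind 2 of the pairs, with control libraries in blue, gRNA libraries in orange and libraries of index 7 to 10 as triangles. Phka1 and Gbe1 are both highest in 2 gRNA libraries, and the 4 triangles hold the lowest Phkb values and the lowest Pygm values.

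Genes whose pattern was most like that of Phkg1 were ranked by Pearson r of log2 CPM over the 14 libraries. The nearest were the phospholipase Pla2g5 (r = 0.965), the sialyltransferase St3gal4 (0.961), the histamine methyltransferase Hnmt (0.961), the acyl-CoA synthetase Acsl6 (0.960) and Whrn (0.958), which encodes whirlin. All 5 were lower in the gRNA group, with log2 fold changes from -1.79 (Acsl6) to -0.99 (St3gal4), so that the likeness was mainly that of the groups. With the group means subtracted the nearest were Rp1 (r = 0.763), Nek8 (0.750), the potassium channel Kcnh2 (0.721), Nbn (0.717) and Sall4 (0.709). How high the top r of so many genes would be by chance was not worked out, so these likenesses are not shown to be real. The ranking depended on the measure: by Spearman's rho 0 of the first 5 and 1 of the second 5 (Sall4) were again among the nearest 5.

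A fixed list of 44 other genes of glycogen metabolism and its control had 39 tested genes, of which 10 fell and 3 rose (33.3%, against 28.2% of all genes; edgeR, adjusted over all genes). The median log2 fold change was -0.08, against 0.01 for all genes. Like the members, this list was drawn up with earlier results of these data known.

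Among the 9 tested enzymes and paralogs outside the members, 2 fell and 1 rose (33.3%, against 28.2% of all genes tested). Ugp2, which makes the UDP-glucose that synthase uses, fell. It was at 430 ± 45.8 CPM in controls and 335 ± 16.0 CPM with the guide (n = 7 each, SD; log2 -0.36, SE 0.0645, edgeR adjusted p = 0.00051), with all 7 gRNA libraries below all controls. The phosphoglucomutase listed as Pgm2, on chromosome 4, fell from 588 ± 32.4 to 504 ± 39.8 CPM (log2 -0.22, SE 0.0581, adjusted p = 0.0088). RefSeq now calls this gene Pgm1, and it converts glucose 1-phosphate and glucose 6-phosphate into each other. The gene listed as Pgm1, on chromosome 5, was scarce, at 4.03 ± 1.53 and 4.96 ± 1.93 CPM (log2 0.30, adjusted p = 0.45). That value was 0.18 without control replicate 7, 0.15 without gRNA replicate 4, 0.17 in the other 10 libraries and 0.49 within indices 7 to 10. Pgm3, which acts in the hexosamine pathway rather than on glycogen, rose from 7.10 ± 1.52 to 11.1 ± 1.69 CPM (log2 0.64, SE 0.138). Within indices 7 to 10 the fit, on 4 libraries, called neither Pgm2 (log2 -0.27, adjusted p = 0.068) nor Pgm3 (0.76, adjusted p = 0.061).

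Gaa, the lysosomal enzyme of glycogen breakdown, stood at 234 ± 16.0 CPM in controls and 238 ± 11.48 CPM in gRNA libraries and did not pass (SD, n = 7 each, log2 0.02, edgeR adjusted p = 0.82).

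Protein phosphatase 1 opposes the kinase, and its targeting subunits bring it to glycogen. Of 5 tested targeting subunits 3 fell and 0 rose, where 13.7% of all genes tested fell and 14.5% rose. Ppp1r3b held 106, 82.5, 97.7, 133, 136, 108 and 84.9 CPM in controls and 66.9, 50.7, 64.4, 76.3, 81.1, 87.7 and 49.8 CPM in gRNA libraries. It fell by 0.65 on the log2 scale (SE 0.142, edgeR adjusted p = 0.0022), and the ranges overlapped through gRNA replicate 6. Ppp1r3c fell from 160 ± 20.4 to 107 ± 18.2 CPM (n = 7 each, SD; log2 -0.58, SE 0.107, adjusted p = 0.00061) and Ppp1r3d from 52.3 ± 4.96 to 41.7 ± 6.44 CPM (log2 -0.33, SE 0.0927, adjusted p = 0.014). The call of Ppp1r3d was lost within indices 7 to 10 (log2 -0.42, adjusted p = 0.15) and without gRNA replicates 6 and 7 together (log2 -0.27, adjusted p = 0.068). Ppp1r3a, the form of striated muscle, was at 177 ± 19.99 and 168 ± 16.7 CPM and did not pass (log2 -0.08, adjusted p = 0.51). The catalytic subunit Ppp1cb fell from 638 ± 45.2 to 552 ± 49.97 CPM (log2 -0.21, adjusted p = 0.023), a call lost without control replicate 6 or 7 (adjusted p = 0.050 in both), with no filter on low counts (0.056) and within indices 7 to 10 (log2 -0.17, adjusted p = 0.28), and the other 4 catalytic or inhibitor genes did not pass.

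Of the 4 genes for laforin, malin and glycogen-binding proteins, 1 passed (25%, against 28.2% of all genes tested). Stbd1, which binds glycogen and is linked to its delivery to lysosomes, rose from 28.6 ± 6.32 to 44.0 ± 6.12 CPM (n = 7 each, SD; log2 0.62, SE 0.131, edgeR adjusted p = 0.0019). The control range, 17.7 to 36.9 CPM, met the gRNA range, 36.5 to 52.9 CPM, at its upper end.

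Among the kinases that act upstream of synthase and phosphorylase kinase, 4 of 13 tested genes fell and 1 rose (38.5%, against 28.2% of all genes tested). Prkab1, a beta subunit of the AMP-activated kinase that carries its glycogen-binding domain, held 65.4, 60.1, 65.1, 70.8, 62.2, 74.4 and 64.7 CPM in controls and 46.3, 54.9, 48.3, 44.2, 39.5, 37.6 and 34.7 CPM in gRNA libraries. The ranges did not overlap (log2 -0.60, SE 0.0909, edgeR adjusted p = 0.000105). Its paralog Prkab2 was at 73.7 ± 16.3 and 72.9 ± 9.28 CPM (log2 -0.02, adjusted p = 0.95). Prkaca, the catalytic subunit of protein kinase A, fell from 502 ± 50.8 to 385 ± 53.4 CPM (n = 7 each, SD; log2 -0.39, SE 0.0847, adjusted p = 0.0025), and its regulatory partner Prkar2a fell by 0.26 on the log2 scale (SE 0.0746, adjusted p = 0.016, and log2 -0.31 with adjusted p = 0.094 within indices 7 to 10).

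The other calls among the kinases were weaker. The AMP-activated kinase subunit Prkaa2 fell by 0.27 on the log2 scale (SE 0.0880, edgeR adjusted p = 0.030). That call was lost without control replicate 1, 2, 3 or 7 or gRNA replicate 2, 3, 4 or 7 (adjusted p = 0.051 to 0.070). In the 4 libraries of indices 7 to 10 it was also lost, at log2 -0.28 (adjusted p = 0.18). Prkag3 rose by 0.37 (SE 0.135, adjusted p = 0.047), from 6.52 ± 1.004 to 8.42 ± 1.38 CPM (SD, n = 7 each), and lost its call without control replicate 1, 2, 4, 5 or 7 or gRNA replicate 1, 3, 5 or 6 (adjusted p = 0.059 to 0.10), with DESeq2 (0.063), with no filter (0.075), without gRNA replicates 6 and 7 together (0.096), in the other 10 libraries (0.18) and within indices 7 to 10 (log2 0.47, adjusted p = 0.26). The glycogen synthase kinases Gsk3a and Gsk3b did not pass (log2 -0.06 and 0.08).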

How the data were processed

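Poly(A) RNA of sorted cardiomyocytes was sequenced from 14 libraries (7 per group) built with SMART-Seq v4 and Nextera XT, per the labels' protocols. The deposited count table holds whole-number counts per gene, with exon positions in mm10. STAR, featureCounts, DESeq2 and DESeq are the tools named in the submitters' processing notes. The sources used here do not give versions, annotation or the strand setting. The authors' deposited table gives, per the file headers, log2 fold changes, p-values, a mean normalised signal and a score (the Wald statistic), and it is quoted only where named. All 14 columns were mapped to samples through the library identifiers in the labels.

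Counts were tested with the quasi-likelihood test of edgeR 4.0.16 (R 4.3.3), with the default filter, TMM scaling, no covariate and Benjamini-Hochberg adjustment over 11170 genes. The common biological coefficient of variation was 16.2%. Standard errors are the log2 fold change over the root of F. CPM use TMM-scaled library sizes, log2 CPM a prior count of 2, and levels between genes are per kilobase of exon. Relations used 100000 permutations within groups. The test was checked on simulated data. No pair of libraries was alike enough to be a repeat (chi-square per degree of freedom of at least 4.58).

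Alternatives were another scaling, no filter, DESeq2 1.42.0, a replicate block, library index, and leaving out each library. Named were the 9 members, Ryr2, called genes of the fixed list with Pygl, Gys2, Phkg2, Ugp2, Pgm1 and Pgm2, and the 5 genes nearest to Phkg1 by each measure, gene models without a proper name left out. Leaving out gRNA replicates 6 and 7 together was added after seeing the data. Others of the list (Gaa, Ppp1r3a, Prkab2, Gsk3a, Gsk3b) and Sumf2 were named after their values were seen. The members and lists were chosen with earlier results of these data known. Promoters are from RefSeq (GRCm38.p6) and motifs were searched on both strands. Values of some genes of the list are not reported here, although its counts include them.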

Additional observations from a re-analysis of the deposited data

Results flagged for a closer look

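Of 76 groups of 7 values examined for a library far from the rest of its group (the members, Ryr2, the named glycogen genes and the ratios), 2 held one, and chance alone sets apart about 1 in 20 groups. Gys1 was at 217.5 CPM in control replicate 5, below the other 6 controls at 248.7 to 269.3 CPM. This library has an index between 7 and 10. Prkaca was at 613.5 CPM in control replicate 1, above the other controls at 467.1 to 503.6 CPM.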

How the results depend on the processing

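The direction of all 9 members was the same under each of the 22 alternatives. Phkg1 lay between -1.69 and -1.47, Gbe1 between 0.48 and 0.64, Phka2 between -0.43 and -0.31, and Phka1 between 0.28 and 0.67. Restricting the fit to the 4 libraries of index 7 to 10 gave 1466 called genes in place of 3149 (689 higher in place of 1621 and 777 lower in place of 1528), and 6 of the other glycogen genes in place of 13 (1 higher and 5 lower, in place of 3 and 10), with fewer samples by construction. There Gys1 was at -0.25 in place of -0.13. Leaving out 1 library gave 2743 to 3173 called genes and 10 to 13 of the other glycogen genes. Between 2 and 8 members were past the threshold over all alternatives, 8 with a term for indices 7 to 10. Of 374 values for 17 genes outside the members, 371 kept their direction, and the exceptions were those of Phkg2 (-0.31 within indices 7 to 10, and -0.018 and -0.013 without control replicate 2 and 3, against 0.048, with a range of -0.018 to 0.119 on leaving out 1 library). The cause was not tested. The replicate block gave 3770 called genes (1922 higher, 1848 lower) and 14 of the other glycogen genes. The groups share replicate numbers only: the deviations of same-numbered libraries had r of 0.061 to 0.53, in 6 of 7 pairs over the 0.1 asked of every pair, and 1 of 7 controls correlated best with its own number. With the block, 7 members were past the threshold and Phkg1 was at -1.63. Shares of plain counts moved the difference in the Phkg1 share from -27.6 to -25.1 percentage points. Depth limits Phkg2, Pygl and Pgm1, with at most 85 reads in any library. The called genes Prkag3 (33 to 87 reads per library) and Pgm3 (36 to 128) were also shallow.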
